A study of Mus musculus with 12 samples.

Results

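The genes described here encode the vacuolar proton pump and the transporters and enzymes that move bicarbonate, chloride and ammonia across kidney cells. They were chosen by symbol from the deposited table: the Atp6v0 and Atp6v1 subunits, the Slc4a and Slc26a families, the carbonic anhydrases (Car), the ammonia channels Rhcg and Rhbg, the alkali-sensing receptor Insrr and the homeobox gene Hmx2. Of 23378 genes in the table, 58 symbols matched and 57 were kept, since 1 was a pseudogene. They fell into 14 genes typical of intercalated cells, 14 widely expressed proton pump subunits, 2 other tissue-restricted subunits, 14 further Slc4 and Slc26 genes, 11 carbonic anhydrases and 2 genes matched by name only (Slc4a1ap and Atp6v1fnb). A filter on low counts passed 50 of the 57, including all 14 intercalated-cell genes. The 7 that did not pass were Atp6v1fnb, Car11, Car3, Car7, Slc26a3, Slc26a6 and Slc26a8, and none of these exceeded 1.53 CPM (CPM is the count scaled to a common library total, after the trimmed-mean scaling of edgeR) in any library.

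RNA was sequenced from cells sorted from mouse kidney cortex, with 12 libraries in 4 groups. All mice were C57BL/6 and carried nNOS/CreERT2 with the mTmG reporter, so that cells in which the Cre recombinase had acted showed membrane GFP and other kidney cells showed tdTomato. Green cells were taken as macula densa (MD) cells, and the most intensely red cells as controls intended to stand for distal tubule and collecting duct epithelium. For 14 days mice were fed either a control diet, or a low salt diet while drinking water with 150 mg/L of enalapril, which inhibits angiotensin-converting enzyme, giving 2 MD and 4 control-cell libraries on each regimen. Both populations were therefore defined by reporter fluorescence, and a green cell is a cell with Cre activity under the nNOS gene. The labels do not say that libraries of a group came from separate animals, so p-values measure the spread between these libraries, which may be technical.

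The vacuolar ATPase is a rotary proton pump: its V1 sector in the cytosol splits ATP and its V0 sector in the membrane carries protons. Most cells use it to acidify lysosomes and endosomes. Intercalated cells of the collecting duct carry a version in the plasma membrane with B1, a4, d2, C2 and G3 subunits. A subunit typical of these cells need not be confined to them. Type A intercalated cells secrete acid and return bicarbonate through the anion exchanger Slc4a1, type B cells secrete bicarbonate through pendrin (Slc26a4) with Slc4a9 on the other side, and carbonic anhydrases supply both with protons and bicarbonate.

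Library totals ranged from 4259020 to 14856542 counts, and the ribosomal-RNA-like gene Gm42418 took 53.5% to 65.0% of them, so 3 counts corresponded to 0.231 to 0.734 CPM. The summed MD markers Nos1, Pappa2 and Ptgs2 lay at 344 to 1180 CPM in MD libraries and at 0.328 to 3.43 CPM in control cells. Control cells held principal-cell markers (7 genes, 93.0 to 718 CPM in sum), but also podocyte markers (5 genes, 38.6 to 1250 CPM) and endothelial markers (7 genes, 40.8 to 1250 CPM). Control-cell replicate 4 on control diet stood apart, with the lowest podocyte and endothelial sums (38.6 and 40.8 CPM) and the highest sum of the 14 intercalated-cell genes (727 CPM, against 59.6 to 258 CPM in the other libraries of its group). Calls that change when it is left out are given beside the genes. In such bulk samples, fewer cells of a type and less RNA per cell cannot be told apart.

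Promoter windows of RefSeq genes (GRCm38.p6, 250 bases before to 50 after the start) were found for 39 of the 57 genes. Those of 6 genes around which the results turn are shown, read 5′ to 3′ on the strand of the gene, with capitals for any of 4 motifs searched on both strands: the forkhead letters TGTTTAC and TGTTTGC, the CLEAR core TCACGTGA of lysosomal genes, and the letters GTTAAT known from HNF1 sites. Atp6v1b1 and Atp6v1g3 are pump subunits of intercalated cells, at chr6:83742767-83743066 on the plus strand and chr1:138273488-138273787 on the plus strand. Rhcg, the ammonia channel, lies at chr7:79617608-79617907 on the minus strand. The carbonic anhydrases Car4 and Car15 lie at chr11:84957504-84957803 on the plus strand and chr16:17838137-17838436 on the minus strand. Atp6v1a, the catalytic subunit shared by all versions of the pump, lies at chr16:44139210-44139509 on the minus strand.
Atp6v1b1: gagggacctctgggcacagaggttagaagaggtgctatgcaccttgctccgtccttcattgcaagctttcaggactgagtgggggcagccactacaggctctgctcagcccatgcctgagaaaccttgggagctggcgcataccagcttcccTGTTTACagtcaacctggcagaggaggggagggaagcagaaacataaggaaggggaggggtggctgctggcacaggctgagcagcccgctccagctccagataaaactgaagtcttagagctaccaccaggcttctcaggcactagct
Atp6v1g3: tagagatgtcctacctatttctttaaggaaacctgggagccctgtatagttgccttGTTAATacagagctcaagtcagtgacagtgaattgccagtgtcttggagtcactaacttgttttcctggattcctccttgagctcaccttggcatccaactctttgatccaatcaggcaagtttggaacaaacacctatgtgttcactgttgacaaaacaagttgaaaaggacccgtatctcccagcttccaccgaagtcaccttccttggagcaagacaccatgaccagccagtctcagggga
Rhcg: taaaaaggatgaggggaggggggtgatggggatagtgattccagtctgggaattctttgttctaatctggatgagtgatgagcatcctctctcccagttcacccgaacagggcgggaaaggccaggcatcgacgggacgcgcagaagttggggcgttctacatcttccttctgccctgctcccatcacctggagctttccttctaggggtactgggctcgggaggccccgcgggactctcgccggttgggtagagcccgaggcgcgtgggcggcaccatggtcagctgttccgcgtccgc
Car4: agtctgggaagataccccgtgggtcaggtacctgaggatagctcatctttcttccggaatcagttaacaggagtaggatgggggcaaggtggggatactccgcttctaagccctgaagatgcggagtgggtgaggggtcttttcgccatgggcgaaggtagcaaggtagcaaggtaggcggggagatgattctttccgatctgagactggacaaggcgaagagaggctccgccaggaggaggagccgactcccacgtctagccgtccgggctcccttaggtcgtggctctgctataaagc
Car15: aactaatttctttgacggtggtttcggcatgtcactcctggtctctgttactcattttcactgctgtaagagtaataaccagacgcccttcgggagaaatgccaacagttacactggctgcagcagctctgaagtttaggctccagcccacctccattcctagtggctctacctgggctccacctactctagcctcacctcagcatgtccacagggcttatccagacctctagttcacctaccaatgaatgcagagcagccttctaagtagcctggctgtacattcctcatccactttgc
Atp6v1a: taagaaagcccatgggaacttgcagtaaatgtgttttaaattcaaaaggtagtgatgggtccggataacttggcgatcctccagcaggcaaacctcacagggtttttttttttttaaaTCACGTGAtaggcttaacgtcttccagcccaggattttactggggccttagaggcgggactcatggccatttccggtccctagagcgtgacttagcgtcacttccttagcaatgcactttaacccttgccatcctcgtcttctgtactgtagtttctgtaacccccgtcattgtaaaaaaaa

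In these windows, Atp6v1b1 held TGTTTAC with its first base at -98 from the start, a motif present in 3.65% of the 32851 promoters of the table. Slc26a1 held the same letters among the 51 windows of the 57 genes, and Slc4a8 held TGTTTGC, found in 5.07% of all promoters. The CLEAR core stood at -132 in Atp6v1a and was also present in Atp6v0d1 and Atp6v0e, against 0.974% of all promoters. Atp6v1g3 held GTTAAT at -194, as did Atp6v0a4 and Slc26a3, against 7.1% of all promoters. The windows shown for Rhcg, Car4 and Car15 held none of these letters, which says only that they are not in these windows. A match is a run of letters and was not tested for binding.

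MD cells carried more RNA than control cells of the bicarbonate transporters Slc4a10 and Slc4a2 and of the carbonic anhydrase family members Car8, Car4 and Car15. For Slc4a2 the ranges overlapped on low salt with enalapril. Of the 14 intercalated-cell genes, 6 were lower in MD cells. The intercalated-cell pump subunits Atp6v1b1 and Atp6v0a4 were present in both populations at overlapping levels. Averaged over both diets, 14 of the 50 tested genes passed the test (edgeR adjusted p under 0.05), 5 higher and 9 lower in MD cells. Over all 14180 genes tested 21.3% passed, 7.48% higher and 13.9% lower, so the count of 14 stood not far above that background. On control diet 7 of 50 passed (4 higher and 3 lower), against 6.61% of all genes (2.69% higher and 3.92% lower), and on low salt with enalapril 3 of 50 passed, all higher, against 7.27% (3.15% higher and 4.13% lower). The average is built from the same libraries as the comparisons within each diet. Without control-cell replicate 4 on control diet, the count averaged over both diets was 21 (12 higher and 9 lower), against 28.2% of all genes (10.7% higher and 17.5% lower). On control diet it was then 11 (7 higher and 4 lower), against 17.7% of all genes (6.22% higher and 11.5% lower), and on low salt with enalapril 9 (6 higher and 3 lower), against 13.5% (5.07% higher and 8.38% lower).

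The groups of genes differed in where their fold changes lay. The 14 intercalated-cell genes had a median log2 fold change of -2.82 on control diet, -1.19 on low salt with enalapril and -1.95 averaged over both, where the medians of all tested genes were -0.05, -0.06 and -0.06. The 36 tested members outside that list had medians of -0.05, 0.25 and 0.26. In the averaged comparison 6 of the 14 intercalated-cell genes passed as lower and 0 as higher. Of the other 36, 5 passed as higher and 3 as lower. The shares of all genes were 13.9% lower and 7.48% higher. The intercalated-cell medians did not move when Hmx2 and Slc26a7, absent from MD libraries on low salt, were set at the bound their counts allow (-1.19 and -1.95). Both genes stay below the median at that bound, so the medians could not have moved. Scaling by library totals alone, without TMM (trimmed mean of M values), moved the median of all genes to 0.12, 0.16 and 0.14 in the 3 comparisons and the averaged calls to 9 higher and 8 lower.

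**Figure D1:**
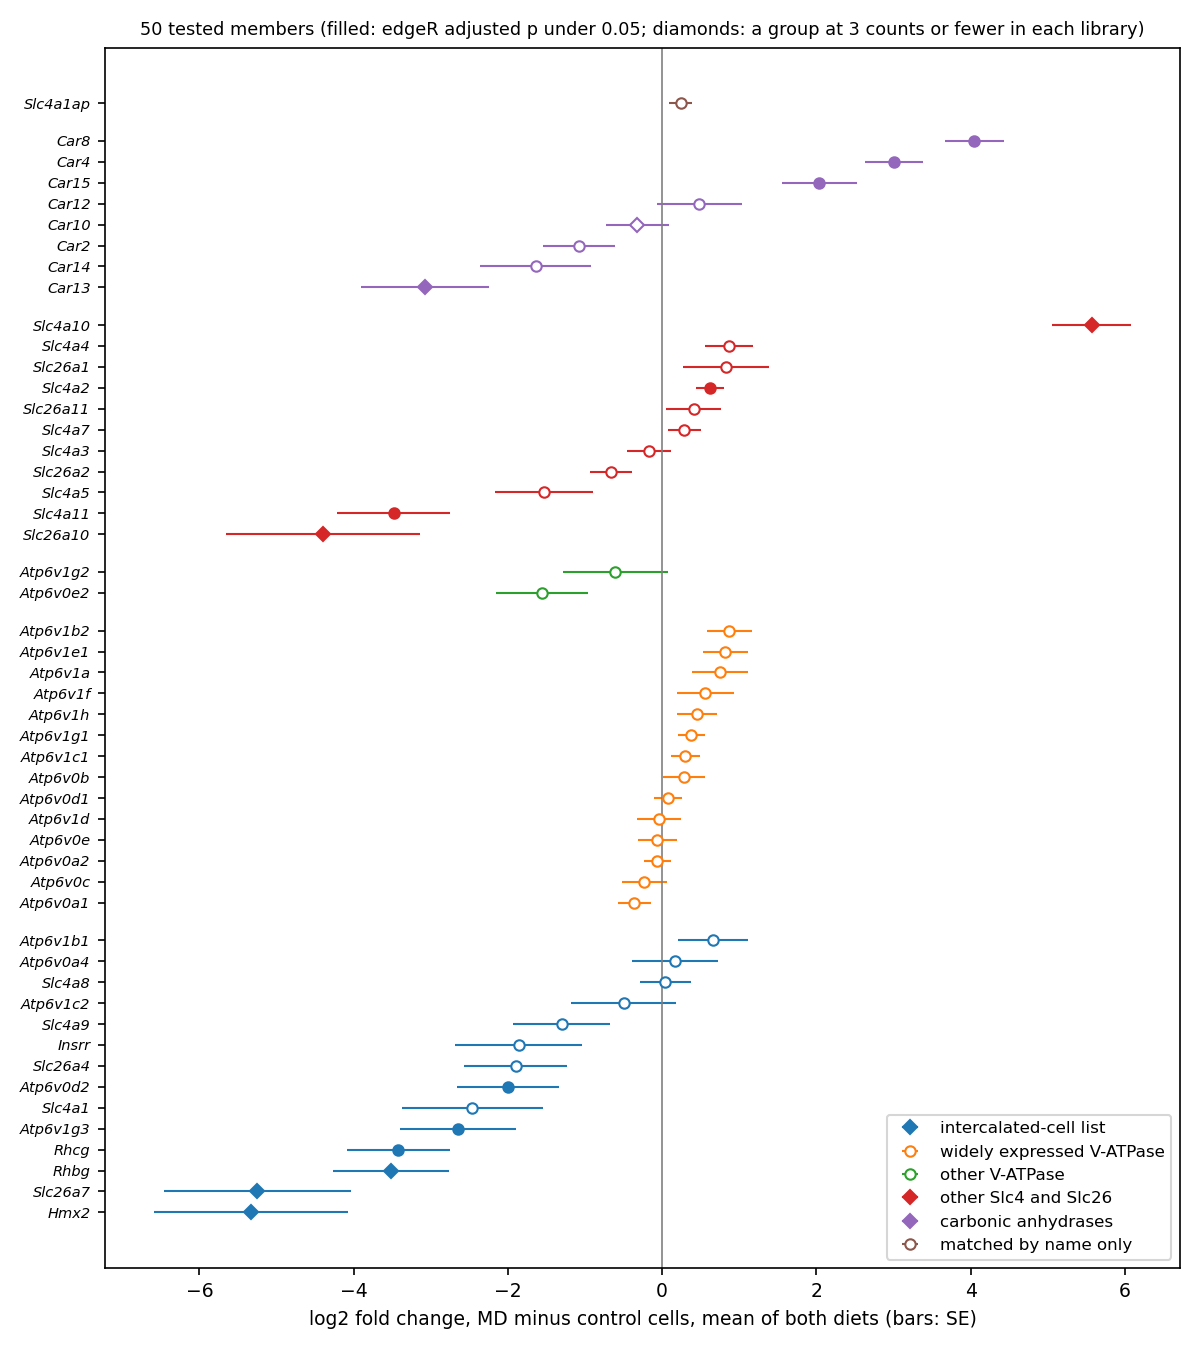
Log2 fold changes of the 50 tested genes between MD and control cells, averaged over both diets (x axis, bars are standard errors), grouped and coloured by role; filled symbols have an edgeR adjusted p under 0.05, and diamonds have a group at 3 counts or fewer in each library, so that their fitted values depend on the prior count. The 14 widely expressed pump subunits lie close to 0 (median 0.29) and most of the 14 intercalated-cell genes lie to the left (median -1.95).

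The widely expressed pump subunits were among the most even of these genes. None of the 14 passed the test in any of the 3 comparisons of MD with control cells, with medians of 0.22 on control diet, 0.29 on low salt with enalapril and 0.29 averaged; 0, 5 and 3 of them had an unadjusted p under 0.05, as did 24.2%, 25.3% and 34.4% of all genes. Atp6v1a (chr16:44085402-44139705), which splits ATP, had the highest mean of them over all 12 libraries, per kilobase of exon. In control cells on low salt with enalapril it stood at 6.46 CPM per kb, below Atp6v1g1 (8.15) and Atp6v1f (7.05). It measured 64.5 and 80.3 CPM in MD cells on control diet and 87.2 and 96.5 CPM on low salt with enalapril. Control cells measured 23.7, 33.5, 48.2 and 136 CPM on control diet and 41.1, 34.8, 37.6 and 42.6 CPM on low salt with enalapril. MD libraries thus lay above all control-cell libraries except replicate 4 on control diet, and the averaged log2 difference was 0.75 (SE 0.36; edgeR adjusted p = 0.165). Atp6v1e1, of the stalk that holds V1 in place, ran from 34.3 to 40 CPM in MD cells and from 11.5 to 25.7 CPM in control cells other than replicate 4 on control diet, which had 46.2 CPM. The nucleotide-binding subunit Atp6v1b2 came closest to the threshold, with a log2 difference of 0.87 (SE 0.29; edgeR adjusted p = 0.051).

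Leaving out that library changed the calls of some V1 subunits. Without it 5 of the 14 widely expressed subunits passed as higher in MD cells in the averaged comparison, against 10.7% of all genes: Atp6v1a by 1.14 on the log2 scale, Atp6v1e1 by 1.08, Atp6v1b2 by 0.98, Atp6v1h by 0.66 and Atp6v1g1 by 0.47 (edgeR adjusted p between 0.000634 and 0.0399). All 5 belong to V1, while the V1 subunits Atp6v1c1, Atp6v1d and Atp6v1f did not pass. The 6 V0 subunits of the list passed in neither case. The library left out held the highest value of its group for each of the 5. Its omission therefore raises their differences on control diet and averaged, and the calls without it are a description, not independent support. On control diet Atp6v1a (1.04) and Atp6v1e1 (1.14) also passed without it, and on low salt with enalapril Atp6v1a (1.23), Atp6v1e1 (1.02) and Atp6v1h (1.03), with edgeR adjusted p between 0.00701 and 0.0209. The 2 other tissue-restricted subunits, Atp6v0e2 and Atp6v1g2, stayed at or below 2.94 CPM in every library and did not pass.

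Among the intercalated-cell versions of pump subunits, 2 of 5 were lower in MD cells in the averaged comparison, against 13.9% of all genes. The other 3 did not pass. Atp6v1g3 (chr1:138273738-138289462), the G subunit of that pump, measured 5.23 and 3.58 CPM in MD cells on control diet and 1.53 and 9.51 CPM on low salt with enalapril. In control cells it measured 7.22, 27.1, 24.6 and 105 CPM on control diet and 49.0, 8.57, 16.2 and 19.7 CPM on low salt with enalapril. The groups did not overlap on control diet, but the higher MD library on low salt lay above the lowest control-cell library. The averaged log2 difference was -2.65 (SE 0.75; edgeR adjusted p = 0.0255), and leaving out any of 3 MD libraries (replicate 1 or 2 on control diet, replicate 1 on low salt) ended the call.

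Atp6v0d2 (chr4:19876841-19922605), a V0 subunit, measured 4.92 and 2.93 CPM in MD cells on control diet, and 9.96 and 11 CPM on low salt with enalapril. Control cells had 5.03, 15.6, 16.8 and 61.1 CPM, and 34.1, 6.86, 51.7 and 14.6 CPM. The averaged log2 difference of -2.0 (SE 0.66; edgeR adjusted p = 0.0483) was lost in 12 of 20 alternatives, 9 of which leave out a library (any except control-cell replicates 1 and 4 on control diet and replicate 2 on low salt), with adjusted p up to 0.226.

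Atp6v1b1 (chr6:83742990-83758855), the B1 subunit, behaved otherwise. It measured 28.6 and 45.8 CPM in MD cells on control diet and 39.5 CPM in both MD libraries on low salt with enalapril. Control cells had 7.44, 18.7, 32.3 and 75.0 CPM on control diet and 14.6, 22.0, 8.61 and 25.2 CPM on low salt with enalapril. MD libraries lay above all 4 control-cell libraries on low salt and within their range on control diet, and the averaged log2 difference was 0.66 (SE 0.46; edgeR adjusted p = 0.344). Without control-cell replicate 4 on control diet it was 1.05 with an adjusted p of 0.0416.

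Atp6v0a4, the a4 subunit (chr6:38048483-38124586), was likewise present in MD cells, at 40 and 47.4 CPM on control diet and 20.7 and 42.2 CPM on low salt with enalapril. Control cells ranged from 6.01 to 66.7 CPM on control diet and from 14.9 to 78.5 CPM on low salt with enalapril, so the groups overlapped. The averaged log2 difference was 0.17 (SE 0.56; edgeR adjusted p = 0.871), and its sign turned when control-cell replicate 1 on control diet (-0.01) or MD replicate 2 on low salt (-0.16) was left out. Atp6v0a4 overlaps D630045J12Rik on its own strand and Tmem213 on the other, so its counts are uncertain. Atp6v1c2 ranged from 1.48 to 4.98 CPM in MD cells and from 0.328 to 17.4 CPM in control cells and did not pass.

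Each of these 5 subunits has a widely expressed counterpart, which allows the mix to be read as a share of the counts of the pair within a library. Counts of different genes depend on transcript length, so a share is compared between libraries only. Atp6v1g3 made up 29.7% and 25.7% of Atp6v1g3 plus Atp6v1g1 in MD cells on control diet, and 11.3% and 38.7% on low salt with enalapril. In control cells it made up 42.9% to 89.0% and 46.7% to 83.5%. No MD library reached the lowest control-cell library of its diet, and the difference was -42.2 percentage points (2-sided exact permutation within diet over 225 arrangements, p = 0.00444, the smallest possible, adjusted over 5 pairs 0.0222). It ran from -49.0 to -35.3 points with each library left out in turn. The call was lost without control-cell replicate 2 or 3 on control diet. With an MD library left out, the arrangements are too few for a single pair to pass after adjustment. Whether the call depends on an MD library therefore cannot be judged this way.

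The Atp6v0d2 share of Atp6v0d2 plus Atp6v0d1 was 32.7% and 24.5% in MD cells on control diet and 59.1% and 61.5% on low salt with enalapril, against 45.1% to 88.7% and 52.8% to 84.8% in control cells. Its difference of -24.2 points did not hold after adjustment (exact permutation p = 0.0267, adjusted 0.0668). The Atp6v1b1 share was 67.1% and 74.2% and then 71.0% and 50.4% in MD cells, within the control-cell ranges of 46.6% to 83.6% and 31.8% to 75.0% (difference 1.9 points, exact permutation p = 0.893, adjusted 0.893). The Atp6v0a4 share differed by 13.2 points (exact permutation p = 0.227, adjusted 0.378) and the Atp6v1c2 share by -6.97 points (exact permutation p = 0.498, adjusted 0.623). In RNA counts, MD cells thus held B1 and a4 at shares that overlapped those of control cells, and G3 at a lower share. The d2 share lay below all control-cell libraries on control diet and overlapped them on low salt with enalapril. Pump protein was not measured.

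**Figure D2:**
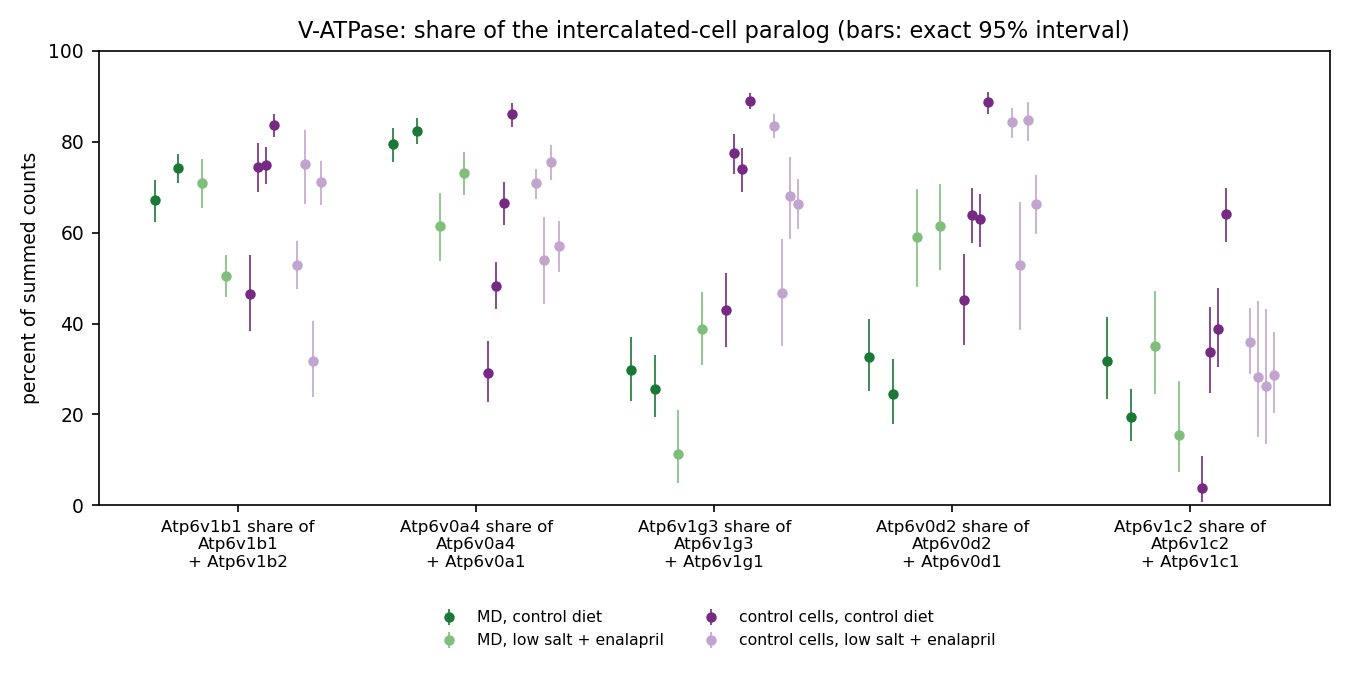
Share of the intercalated-cell version in the summed counts of each pair of pump subunits (y axis, percent), with a point for each library, its exact 95% binomial interval for counting error, and colours for the 4 groups. The Atp6v1g3 shares of MD libraries (11.3% to 38.7%) lie below those of control cells (42.9% to 89.0%), while Atp6v1b1 shares overlap.

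Both ammonia channels of the collecting duct were lower in MD cells. Rhcg (chr7:79593363-79617657), which lets ammonia out across the apical membrane, measured 5.03 and 4.81 CPM in MD cells on control diet and 0.958 and 2.62 CPM on low salt with enalapril. Control cells measured 14.8, 45.0, 53.5 and 126 CPM on control diet and 14.2, 18.9, 3.57 and 31.7 CPM on low salt with enalapril. No MD library reached a control-cell library of its diet. The log2 difference was -3.60 on control diet (SE 0.92; edgeR adjusted p = 0.0382), -3.23 on low salt with enalapril (SE 0.98; adjusted p = 0.0673) and -3.42 averaged (SE 0.67; adjusted p = 0.00457). Without control-cell replicate 4 on control diet, Rhcg also passed on low salt (-3.23; edgeR adjusted p = 0.0266).

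Rhbg (chr3:88242874-88254709), the basolateral channel, measured 0.513 and 0.733 CPM in MD cells on control diet and 0.575 and 0.0 CPM on low salt with enalapril. Control cells measured 1.97, 6.01, 6.38 and 19.3 CPM and 1.84, 3.67, 1.47 and 4.37 CPM. Control-cell libraries were again higher without overlap on both diets. Its log2 difference on control diet was -3.71 (SE 0.94; edgeR adjusted p = 0.0380), and the averaged comparison passed with an adjusted p of 0.00696. On low salt with enalapril 89 counts in control cells stood against 3 in MD cells, a ratio of 10.6 (exact 95% interval 3.51 to 52.3, counting error only). That comparison had an edgeR adjusted p of 0.111 with all libraries and of 0.0394 without replicate 4 of control cells on control diet. The averaged calls of Rhcg and Rhbg held in all 20 alternatives, while the calls on control diet were lost in 10 of 21 for Rhcg and 6 of 21 for Rhbg. The omissions that ended both of these were either MD library of that diet, its control-cell replicates 2 and 3, or control-cell replicate 2 of the other, with adjusted p up to 0.251 and 0.231. That of Rhcg was also lost without either MD library or control-cell replicate 1 on low salt. Rhcg and Rhbg overlap the unnamed genes Gm45170 and Gm38392 on the same strand.

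Of the type A exchanger genes, Slc26a7 was lower in MD cells and Slc4a1 did not pass. Slc4a1 (chr11:102348824-102366203), the basolateral chloride-bicarbonate exchanger that red blood cells also use, measured 2.26 and 5.21 CPM in MD cells on control diet and 0.766 and 1.80 CPM on low salt with enalapril. Control cells measured 3.94, 17.0, 31.0 and 69.8 CPM and 1.69, 7.10, 0.0 and 10.8 CPM. The ranges overlapped, and the averaged log2 difference of -2.46 did not pass (SE 0.91; edgeR adjusted p = 0.0746). Erythroid markers (5 genes) summed to 1.92 to 7.41 CPM in MD cells and to 0.0 to 94.7 CPM in control cells. The library with the most Slc4a1, at 69.8 CPM, held 3.72 CPM of them. Slc26a7, a chloride-bicarbonate exchanger of type A cells, measured 0.718 and 0.0 CPM in MD cells on control diet and 0.0 CPM in both on low salt with enalapril, against 3.24 to 4.86 CPM and 0.42 to 3.87 CPM in control cells. On control diet the count ratio of control cells to MD cells was 11.8 (interval 5.59 to 29.9), and on low salt it was at least 3.6-fold higher in control cells, at a floor of 3 counts per library (edgeR adjusted p = 0.0115 averaged).

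The type B genes were not called. Pendrin, Slc26a4 (chr12:31519827-31559969), measured 2.36 and 3.58 CPM and then 5.36 and 5.58 CPM in MD cells, and 1.31 to 53.5 CPM and 7.59 to 14.6 CPM in control cells (averaged log2 difference -1.90, SE 0.67; edgeR adjusted p = 0.0628). The log2 difference of Slc4a9 was -2.73 on control diet (SE 0.97; edgeR adjusted p = 0.110) and 0.14 on low salt with enalapril (SE 0.82; adjusted p = 0.937). Slc4a8, a sodium-driven chloride-bicarbonate exchanger, was even across groups, at 5.17 to 11 CPM in MD cells and 2.84 to 13.1 CPM in control cells (averaged log2 difference 0.04, SE 0.33).

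Insrr, which senses alkali outside the cell, ranged from 0.0 to 6.07 CPM in MD cells and from 1.09 to 33.1 CPM in control cells and did not pass (log2 difference -1.86, SE 0.82; edgeR adjusted p = 0.126). Hmx2 was found in 1 of 4 MD libraries, at 0.616 CPM, and in all 8 control-cell libraries, at 0.437 to 6.20 CPM. On low salt with enalapril it was at least 5.13-fold higher in control cells, and the averaged comparison passed (edgeR adjusted p = 0.0126), but not without MD replicate 2 on low salt (adjusted p = 0.0554). On low salt alone Hmx2 passed without control-cell replicate 4 on control diet (edgeR adjusted p = 0.0216) and not with it. Insrr overlaps Pear1, and Hmx2 overlaps Fgfr2, on the opposite strand.

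**Figure D3:**
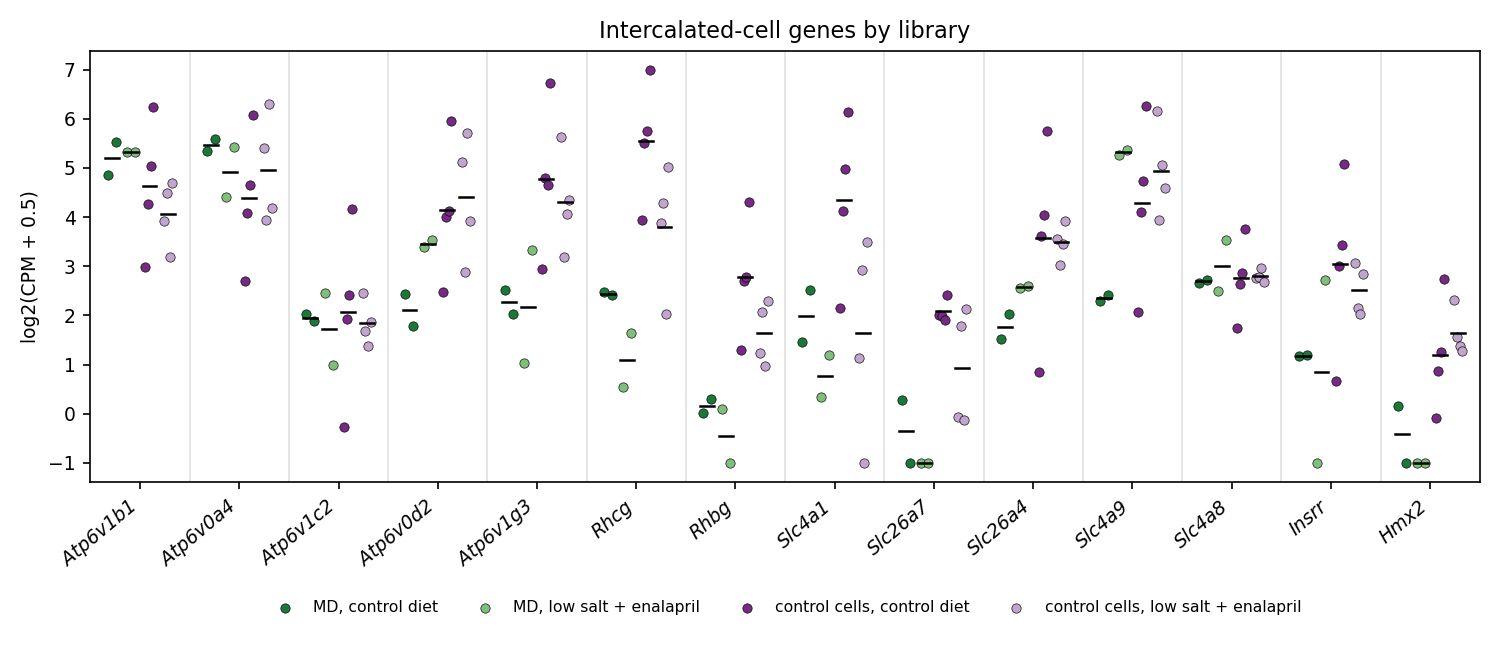
Levels of the 14 intercalated-cell genes in the 12 libraries (y axis, log2 of CPM plus 0.5), where points are libraries, bars are group means and colours mark the 4 groups. Rhcg, Rhbg and Slc26a7 of MD libraries lie below control cells of the same diet, while Slc4a9 of MD libraries lies at 4.41 to 4.81 CPM on control diet and 37.9 to 40.7 CPM on low salt with enalapril.

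Other genes of the intercalated cell, outside the symbol rule, moved in both directions. Of 13 tested, 7 were lower and 4 higher in MD cells in the averaged comparison, against 13.9% and 7.48% of all genes, with a median of -2.45 over all 13. The 7 lower included Foxi1, the forkhead factor of intercalated cells (log2 difference -2.45, SE 0.65; edgeR adjusted p = 0.0192), Aqp6, a channel of their vesicles (-3.52, SE 0.84; adjusted p = 0.0118), and Kit (-2.98, SE 0.55; adjusted p = 0.00331). Foxi1 measured 0.718 to 2.46 CPM in MD cells and 1.2 to 23.9 CPM in control cells. The 4 higher included Avpr1a, a vasopressin receptor (2.54; edgeR adjusted p = 0.0137), and the transcription factor Tfcp2l1 (1.30; adjusted p = 0.0302). Markers of the thick ascending limb (5 genes) summed to 2260 to 4080 CPM in MD cells and to 199 to 1510 CPM in control cells, with 2 of 5 higher in MD cells, and their part in the result was not tested.

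Markers of some other cell types were lower in MD cells, where 13.9% of all genes passed as lower in the averaged comparison. Principal-cell markers were lower in MD cells for 7 of 7 genes in the averaged comparison (sums of 7.85 to 34.2 CPM in MD cells and 93.0 to 718 CPM in control cells), podocyte markers for 5 of 5 (4.43 to 138 CPM against 38.6 to 1250 CPM) and endothelial markers for 7 of 7 (9.35 to 147 CPM against 40.8 to 1250 CPM). None of these markers was at 0 in all 4 MD libraries. Their part in the result was not tested.

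Among the bicarbonate transporters outside the intercalated-cell list, 1 was nearly absent from control cells. Slc4a10 (chr2:62046462-62326730), a sodium-dependent bicarbonate transporter best known from neurons, measured 7.90 and 11.4 CPM in MD cells on control diet and 4.02 and 4.76 CPM on low salt with enalapril. In control cells it measured 0.0, 0.094, 0.0 and 0.0 CPM on control diet and 0.615, 0.979, 0.0 and 0.305 CPM on low salt with enalapril. Every MD library lay above every control-cell library. On control diet 217 counts in MD cells stood against 1 in control cells, a ratio of 394 (exact 95% interval 69.9 to 15600, counting error only). On low salt with enalapril the log2 difference was 3.19 (SE 0.63; edgeR adjusted p = 0.0120), and the averaged comparison had an adjusted p of 4.14e-05. The averaged call and that on control diet held in all alternatives, and that on low salt was lost without MD replicate 2 on low salt.

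Slc4a2 (chr5:24423837-24440950), a chloride-bicarbonate exchanger of basolateral membranes, measured 40.8 and 34.8 CPM in MD cells on control diet and 26.8 and 24.8 CPM on low salt with enalapril. Control cells measured 16.9, 18.7, 16.8 and 24.7 CPM and 25.5, 16.6, 26.7 and 16.6 CPM. MD cells were higher without overlap on control diet (log2 difference 0.97, SE 0.25; edgeR adjusted p = 0.0390), while on low salt the ranges overlapped (0.27, SE 0.26; adjusted p = 0.545). The averaged value of 0.62 (SE 0.18; adjusted p = 0.0280) was lost in 9 of 20 alternatives and the value on control diet in 9 of 21, with adjusted p up to 0.146 and 0.236. Leaving out any MD library, or control-cell replicate 1, 2 or 3 on control diet, ended both calls, and leaving out control-cell replicate 4 on low salt ended the averaged one. Slc4a2 overlaps Fastk on the opposite strand. Slc4a4, a sodium-bicarbonate cotransporter, measured 20.9 to 30.0 CPM in MD cells and 6.86 to 29.1 CPM in control cells (averaged log2 difference 0.87, SE 0.31; edgeR adjusted p = 0.0664), and it passed without control-cell replicate 1 on low salt (1.04; adjusted p = 0.0288).

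Lower in MD cells were Slc4a11 and Slc26a10. Slc4a11 (chr2:130684113-130697519), a divergent family member known for proton flux in the corneal endothelium, measured 0.616 and 0.407 CPM and then 0.0 and 0.820 CPM in MD cells. Control cells measured 1.53, 5.83, 8.09 and 11.3 CPM and 4.15, 3.92, 1.05 and 7.53 CPM, above the MD libraries of either diet. The averaged log2 difference was -3.48 (SE 0.73; edgeR adjusted p = 0.00636), and the call held in all 20 alternatives. On control diet it was -3.69 (SE 0.97; adjusted p = 0.0438), a call lost in 10 of 21 alternatives, among them the omission of either MD library or control-cell replicate 2 or 3 of that diet, or of control-cell replicate 1, 2 or 4 of the other. Slc26a10 was at 0 in 3 of 4 MD libraries and at 0.513 CPM in the other, against 0.207 to 2.57 CPM in control cells. On low salt it was at least 1.61-fold higher in control cells (edgeR adjusted p = 0.0296 averaged, lost in 7 of 20 alternatives), and it overlaps B4galnt1. Without control-cell replicate 4 on control diet it also passed on that diet (-3.28; edgeR adjusted p = 0.0398). The averaged call of Slc26a10 was lost without either MD library on low salt, MD replicate 2 or control-cell replicates 2 or 3 on control diet, or control-cell replicate 4 on low salt. Of the 11 tested genes in this group, 2 passed as higher and 2 as lower in the averaged comparison, against 7.48% and 13.9% of all genes.

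Carbonic anhydrases interconvert carbon dioxide and bicarbonate. In the averaged comparison 3 of the 8 tested were higher in MD cells and 1 lower, against 7.48% and 13.9% of all genes. Car8 (chr4:8143362-8239041), a family member without catalytic activity that binds the inositol trisphosphate receptor, measured 19.9 and 23.9 CPM in MD cells on control diet and 28.5 and 30.8 CPM on low salt with enalapril. Control cells measured 2.95, 0.564, 1.43 and 0.310 CPM and 1.69, 0.979, 2.94 and 1.63 CPM. Every MD library exceeded every control-cell library, and the log2 difference was 4.06 on control diet (SE 0.54; edgeR adjusted p = 0.00144), 4.04 on low salt with enalapril (SE 0.55; adjusted p = 0.00170) and 4.05 averaged (SE 0.38; adjusted p = 4.85e-05). These calls held in all alternatives. Car8 overlaps Gm11799 on the same strand.

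Car4 (chr11:84957786-84966044), anchored to the outer membrane face, measured 12.2 and 20 CPM in MD cells on control diet and 5.17 and 4.10 CPM on low salt with enalapril. Control cells measured 0.875, 0.940, 2.19 and 2.07 CPM and 0.769, 0.0, 0.630 and 1.22 CPM. MD libraries again lay above all control cells, by 3.40 (SE 0.50; edgeR adjusted p = 0.00272) on control diet, 2.62 (SE 0.58; adjusted p = 0.0214) on low salt and 3.01 (SE 0.38; adjusted p = 0.000350) averaged, on the log2 scale. Leaving out MD replicate 2 on control diet ended the call on that diet, and leaving out either MD library on low salt ended the call there. Car4 and Slc4a4 are also genes of the proximal tubule, whose 7 markers summed to 38.3 to 144 CPM in MD cells and 31.7 to 72.1 CPM in control cells. Of these markers 1 of 7 was higher in MD cells in the averaged comparison, against 7.48% of all genes. Their part in the result was not tested.

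Car15 (chr16:17835276-17838364), another membrane-bound form, was the most abundant of all 57 genes per kilobase of exon. It measured 119 and 152 CPM in MD cells on control diet and 195 and 164 CPM on low salt with enalapril. Control cells measured 3.83, 15.4, 33.6 and 56.5 CPM and 76.9, 29.4, 74.3 and 28.3 CPM. The groups did not overlap, and the control-cell values were widely spread. The difference did not pass on control diet (2.31, SE 0.70; edgeR adjusted p = 0.0707; 2.94 and 0.0108 without control-cell replicate 4 on that diet) or on low salt (1.78, SE 0.70; adjusted p = 0.137), and passed averaged (2.04, SE 0.49; adjusted p = 0.0123), losing the call without MD replicate 2 on control diet (adjusted p = 0.0557). Car15 overlaps Gm20518 on the same strand.

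Of the other carbonic anhydrases, Car13 was lower in MD cells, and Car2, Car12, Car14 and Car10 did not pass with all libraries. Car13, a cytosolic form, measured 0.0 to 0.244 CPM in MD cells and 0.210 to 2.08 CPM in control cells, and was lower (edgeR adjusted p = 0.0209 averaged, lost without either MD library on control diet or MD replicate 2 on low salt). On low salt its ratio was 14.6 from 41 counts against 1 (interval 2.48 to 592). Car2, the abundant cytosolic form, measured 13.2 to 19.1 CPM in MD cells and 13.0 to 133 CPM in control cells (averaged log2 difference -1.08, SE 0.47; edgeR adjusted p = 0.124), and it passed without the first control-cell library on control diet (-1.23; adjusted p = 0.0461). Car12, a membrane form, was steady in MD cells at 30.6 to 35.2 CPM and varied from 5.04 to 108 CPM in control cells (0.48, SE 0.55; edgeR adjusted p = 0.585). Without control-cell replicate 4 on control diet, Car12 passed as higher in MD cells (1.05; edgeR adjusted p = 0.0455). For Car2 and Car12, as for Atp6v1b1, the highest value in control cells was in replicate 4 on control diet.

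Of the 50 tested genes, 9 had all MD libraries on one side of all control-cell libraries of the same diet, on both diets: Slc4a10, Car8, Car4 and Car15 above, and Rhcg, Rhbg, Slc26a7, Slc4a11 and Car13 below. The share of all tested genes with such separation was 13.6%, with 6.02% above and 7.6% below. For Car13 the separation rests on scaling, since its closest libraries held equal counts. These were 3 counts each on control diet (0.244 and 0.31 CPM) and 1 count each on low salt (0.192 and 0.21 CPM). For Slc26a7 on low salt, 0 counts in MD libraries stood against as few as 2 in a control-cell library. Within a diet, groups of 2 and 4 libraries separate more readily. On control diet 16 of the 50 tested genes did not overlap (6 above and 10 below in MD cells), against 31.9% of all genes (15.2% and 16.7%). On low salt with enalapril 21 did not overlap (12 above and 9 below), against 34.8% (15.3% and 19.5%).

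**Figure D4:**
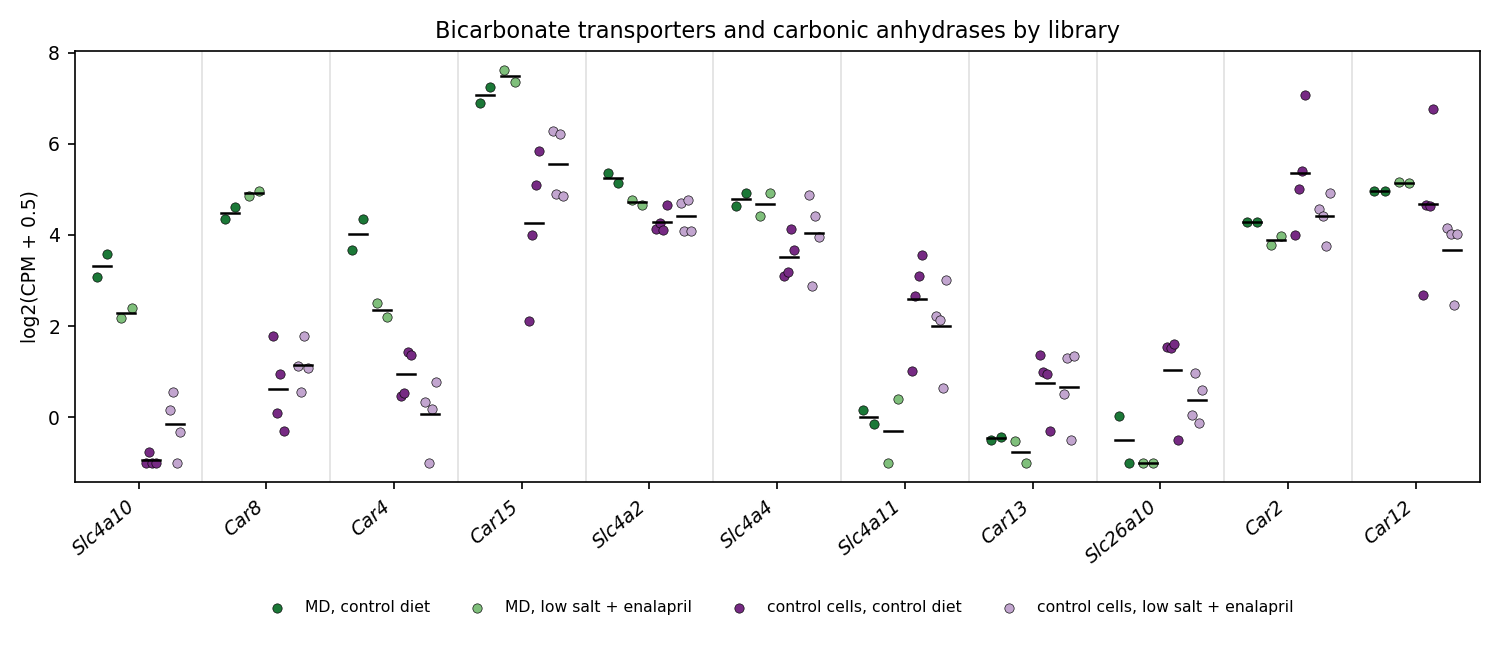
Levels of bicarbonate transporters outside the intercalated-cell list and of carbonic anhydrases in the 12 libraries (y axis, log2 of CPM plus 0.5), where points are libraries, bars are group means and colours mark the 4 groups. Slc4a10, Car8, Car4 and Car15 of MD libraries lie above all control-cell libraries, and Car2 and Car12 peak at 133 and 108 CPM in replicate 4 of control cells on control diet.

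Per kilobase of exon, the order of group means differed between the cell populations on control diet. In MD cells on control diet Car15 led with a mean of 71.1 CPM per kb, followed by Atp6v1a (12), Atp6v1f (11.5) and Atp6v1g1 (10), and on low salt with enalapril Car15 had 94.1 CPM per kb. In control cells on control diet the leading genes were Rhcg (26.8 CPM per kb), Car2 (22.9) and Atp6v1g3 (21.7), then Car15 (14.3). These 4 means rest largely on replicate 4, and their ranges overlapped. On low salt with enalapril Car15 led in control cells too, at 27.4 CPM per kb, followed by Atp6v1g3 (12.4). Rhcg in MD cells had 2.20 and 0.803 CPM per kb on the 2 regimens.

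Of 11 tested partners of the pump outside the symbol rule, 1 was higher and 2 lower in MD cells in the averaged comparison, against 7.48% and 13.9% of all genes: Dmxl1, which helps to join V1 to V0 (log2 difference 0.82, SE 0.21; edgeR adjusted p = 0.0156), Ncoa7, which binds V1 (-0.78, SE 0.17; adjusted p = 0.00831), and Tcirg1, the a3 subunit (-1.49, SE 0.33; adjusted p = 0.00877). Of 11 tested genes of acid sensing, ammonia formation and proton exchange, 3 were higher and 2 lower, against the same 7.48% and 13.9%. Among them, Glud1, which encodes glutamate dehydrogenase, was higher by 0.58 (SE 0.14; edgeR adjusted p = 0.0111), and the sodium-proton exchanger Slc9a2 by 2.81 (SE 0.40; adjusted p = 0.000650). The exchanger Slc9a4 (-2.60, SE 0.73; adjusted p = 0.0243) and the proton-sensing receptor Gpr4 (-3.16, SE 1.01; adjusted p = 0.0422) were lower.

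Low salt with enalapril changed none of the 50 genes by the test in either population. In MD cells 0 of 50 passed with edgeR, as for all 14180 genes (0.0%), and 4 had an unadjusted p under 0.05 (Slc4a9, Car4, Car10 and Slc26a11), against 11.2% of all genes. In control cells 0 of 50 passed, against 0.00705% of all genes, and 8 had an unadjusted p under 0.05, against 6.45%. DESeq2 also passed 0 of 50 in either population. The test of whether the diet acted differently in MD and control cells passed for 0 of 50 genes (0.0% of all genes), with 4 at an unadjusted p under 0.05 (Slc4a9, Slc4a10, Car10 and Atp6v1h), against 7.03%. The libraries of the 2 regimens did not overlap in MD cells for 24 of the 50 genes (14 higher and 10 lower on low salt with enalapril), against 40.6% of all genes (18.8% and 21.8%), and in control cells for 1 (Slc4a5, lower), against 4.2% (2.1% higher and 2.09% lower).

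Slc4a9, the basolateral exchanger of type B cells, had the largest diet difference among the genes detected in all 4 MD libraries. It measured 4.41 and 4.81 CPM in MD cells on control diet and 37.9 and 40.7 CPM on low salt with enalapril. Control cells measured 3.72, 16.7, 26.1 and 75.9 CPM on control diet and 70.6, 14.9, 32.8 and 23.7 CPM on low salt with enalapril. The MD libraries of the 2 regimens did not overlap, as held for 40.6% of all genes, while control cells overlapped. The log2 difference in MD cells was 3.09 (SE 1.05; edgeR unadjusted p = 0.0121, adjusted p = 0.325). With only the MD groups fitted the adjusted p was 0.000109, and over the 20 alternatives it ran from 4.67e-05 to 0.611. The difference of its diet effect between the populations was 2.86 (SE 1.22; edgeR adjusted p = 0.688).

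Car4 had 12.2 and 20 CPM in MD cells on control diet against 5.17 and 4.10 CPM on low salt with enalapril (log2 difference -1.80; edgeR adjusted p = 0.325). Car10 was at 0 in both MD libraries on control diet and at 1.53 and 1.15 CPM on low salt with enalapril, at least 4.86-fold higher at a floor of 3 counts per library. Neither passed. In the simulated data, the same test recovered 46% of 200 genes changed 4-fold between the MD groups (13474 genes tested), against 91.5% between the control-cell groups (13098 tested). Each gene was drawn with the spread typical of its level, and genes of low count were not among those changed. Genes that vary more between libraries than that, or have few counts, would be recovered less often.

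In control cells on low salt with enalapril, 8 of the 14 intercalated-cell genes set replicates 1 and 3 apart from replicates 2 and 4 (3 higher and 5 lower in replicates 1 and 3), a grouping seen in the values and not given by the labels. The share of all genes with this split was not counted. The 8 are therefore a description, and not a trait shown to be particular to intercalated-cell genes. The other 6 (Atp6v1c2, Atp6v1g3, Slc26a4, Slc4a8, Insrr and Hmx2) showed no such separation. Replicates 1 and 3 had little Slc4a1 (1.69 and 0.0 CPM) and Slc26a7 (0.461 and 0.420 CPM), while replicates 2 and 4 had more (7.10 and 10.8 CPM, and 2.94 and 3.87 CPM). Slc4a9 was highest in replicates 1 and 3 (70.6 and 32.8 CPM, against 14.9 and 23.7 CPM), as were Atp6v0a4 (41.9 and 78.5 CPM, against 14.9 and 17.8 CPM) and Atp6v0d2 (34.1 and 51.7 CPM, against 6.86 and 14.6 CPM). Atp6v1b1 ran the other way, at 14.6 and 8.61 CPM in replicates 1 and 3 and at 22.0 and 25.2 CPM in replicates 2 and 4, as did Rhcg and Rhbg. Podocyte markers summed to 124 and 202 CPM in replicates 1 and 3 and to 994 and 834 CPM in replicates 2 and 4, and erythroid markers to 0.0 and 0.21 CPM and to 66.6 and 9.15 CPM. Their part in the pattern was not tested.

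Slc4a1, of type A cells, and Slc4a9, of type B cells, were set against each other within each library. The measure was the share of Slc4a1 in the counts of Slc4a1 plus Slc4a9. Red blood cells also carry Slc4a1, and their part in the shares was not tested. This pair was chosen after its values were seen, so the shares are a description with no test. On control diet the 4 control-cell libraries lay close together at 51.4%, 50.4%, 54.3% and 47.9%, although their summed intercalated-cell levels ran from 59.6 to 727 CPM. The MD libraries lay at 33.8% and 52.0%. On low salt with enalapril the MD libraries lay at 1.98% (exact 95% interval 0.542% to 4.99%) and 4.25% (2.14% to 7.47%), and the control-cell libraries at 2.34%, 32.2%, 0.0% and 31.3%. The 0.0% stood for 0 of 156 counts (upper exact bound 2.34%). All 6 libraries on low salt with enalapril thus lay below all 6 on control diet, the nearest being 32.2% (interval 22.8% to 42.9%) and 33.8% (22.6% to 46.6%).

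Rhcg relative to Slc4a9 gave a like picture, at 50% to 79.9% in the 6 libraries on control diet and 2.46% to 57.2% on low salt with enalapril, with overlap. Slc26a4 relative to Slc4a9 was 34.8% and 42.7% in MD cells on control diet and 12.4% and 12.1% on low salt with enalapril, and ran from 26.1% to 41.3% and from 13.7% to 38.2% in control cells. The 3 pairs share Slc4a9, so their shares move together with it. Slc26a4 is itself a type B gene, so these shares cannot be read as type A against type B. Slc4a9 alone did not pass the test of diet in either population.

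**Figure D5:**
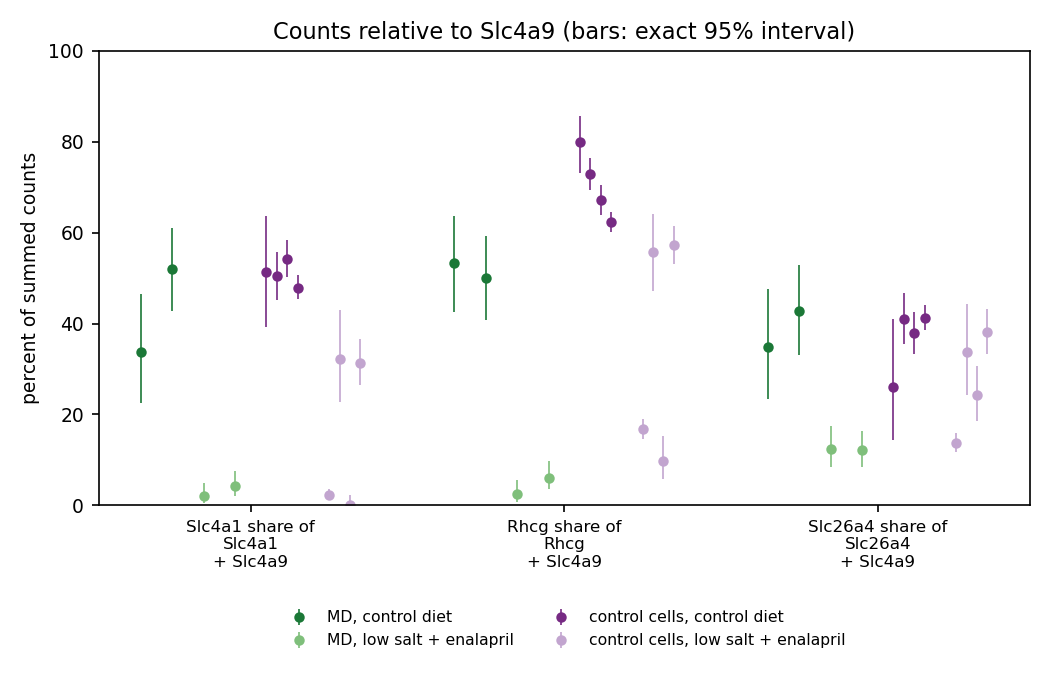
Counts of Slc4a1, Rhcg and Slc26a4 as a share of their sum with Slc4a9 (y axis, percent), with a point for each library, its exact 95% binomial interval for counting error, and colours for the 4 groups. The Slc4a1 share lies at 47.9% to 54.3% in control cells on control diet and at 0.0% to 32.2% in those on low salt with enalapril.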

How the data were processed

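RNA from sorted cells was made into stranded total-RNA libraries with a kit for small inputs, per the labels' protocols. The deposited values are expected counts per gene and library, since 16.1% of values were not whole. STAR 2.61, Partek and the build mm10 are named in the submitters' processing notes, and the counting settings, including strand, are not given in the sources used here, so genes that overlap another are uncertain. The smallest row sum was 10 counts. Expected counts were rounded and fitted with edgeR 4.0.16 (quasi-likelihood test, TMM scaling, R 4.3.3) with a coefficient for each of the 4 groups over all 12 libraries. Genes were kept by filterByExpr (count minimum 10, total minimum 15), leaving 14180, and p-values were adjusted over all of them by Benjamini-Hochberg (threshold 0.05). CPM values are per library total scaled by TMM. Groups, pairs of subunits and contrasts were compared as stated with each result, and alternatives (DESeq2 1.42.0, scaling, filter, groups fitted, replicate numbers, each library left out) are in the closing section. Coordinates and exon lengths come from GENCODE M21 (GRCm38). The test was tried on simulated data, drawn with the spread typical of each gene's level. There it recovered 97% of 200 genes changed 4-fold between MD and control cells averaged over both diets (13429 genes tested, 9 false calls). Any gene of the symbol rule could be named, with full values for the intercalated-cell list and for those past 0.05 in a comparison (in a group with none, the most abundant), and other genes only from the lists given. The members and lists were chosen with earlier results of these data known. The replicate numbers in titles and descriptions were not taken as pairs in the main test, and whether they mark pairs could not be decided. Some results for individual genes of these lists are not reported here.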

Additional observations from a re-analysis of the deposited data

Results flagged for a closer look

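In groups of 4 control-cell libraries, 5 of 100 gene and group combinations held 1 library set apart from the other 3, and chance sets apart about 1 in 20, or 5 of 100. In control cells on low salt with enalapril, replicate 3 was low for 3 genes: Atp6v1g1 at 7.56 CPM (others 9.68 to 9.97), Car12 at 5.04 CPM (others 15.7 to 17.4) and Slc4a5 at 0.0 CPM (others 0.922 to 1.12). In control cells on control diet, Slc26a10 in replicate 4 was at 0.207 CPM (others 2.35 to 2.57), and Slc4a10 in replicate 2 was at 0.094 CPM, from 1 count, with the others at 0.0.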

How the results depend on the processing

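The calls of Car8 (on each diet and averaged), Slc4a10 (on control diet and averaged), and Car4, Rhcg, Rhbg, Slc26a7 and Slc4a11 (averaged) held in every alternative run, 21 within a diet and 20 averaged. The count of called genes on control diet (7) was 14 with DESeq2, 3 with only the groups compared, 18 with only the 8 libraries that share a number in their descriptions (chosen after seeing the data), and 2 to 11 with each library left out. On low salt with enalapril (3) it was 8, 9, 18 and 1 to 9, and averaged (14) it was 26 with the 8 libraries and 8 to 21 with each library left out. In MD cells the diet count (0) was 2 with only the MD groups, 1 with the 8 libraries and 0 with each library left out, and it was 0 in all alternatives for control cells and for the difference. The lowest counts came without MD replicate 2 of the diet concerned, and the highest when replicate 4 of control cells on control diet was left out. The control-diet count was also 3 without MD replicate 1 or control-cell replicates 2 or 3 of that diet, and 4 without control-cell replicate 2 on low salt. The low-salt count was 5 without the first control-cell library on control diet. With each library left out the Atp6v0a4 difference ran from -0.16 to 0.60, below 0 without MD replicate 2 on low salt (-0.16) or the first control-cell library on control diet (-0.01). The Atp6v1b1 share difference ran from -3.26 to 7.05 points, below 0 without MD replicate 1 on low salt (-3.26), the first control-cell library on control diet (-1.99) or control-cell replicate 3 on low salt (-2.42). The causes were not tested.

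With the replicate block from the titles, the counts were 15 on control diet and 2 for the diet in MD cells, and in the other comparisons within 1.5 times of those without a block. With the block from the descriptions they were 19 on control diet, 20 on low salt and 28 averaged. The block from the titles ended the averaged calls of Atp6v0d2, Atp6v1g3, Hmx2, Car13 and Slc26a10, that of Slc4a11 on control diet, and those of Car4 and Slc4a10 on low salt. Of the genes not called in the averaged comparison, Atp6v1b1 passed with either block (log2 differences 1.37 and 0.65), and Atp6v0a4, Slc4a4 and Car2 passed with that from the descriptions (1.0, 1.2 and -0.88). Slc4a9 passed for the diet in MD cells with the block from the titles (3.11). Same-numbered libraries deviated with correlations of -0.377 to 0.278 (titles) and of 0.227, -0.0183, 0.0753 and -0.0371 (descriptions). With 2 MD libraries in a group, their deviations from the group mean mirror each other. Correlations that involve them cannot decide whether libraries are paired. Each shared number in the descriptions joins an MD and a control-cell library of the same diet, and the labels do not say what it marks. The numbers were not taken as pairs in the main test. Depth limits genes under 0.231 to 0.734 CPM, the level of 3 counts.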
